A study of Mus musculus with 12 samples.

Results

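The livers of mice given compound C2 were compared with those of mice given compound C1, both on a high-fat diet (HFD). The comparison used 6 of the 12 libraries of the series, the 3 labelled HFD+C1 and the 3 labelled HFD+C2, and all values are HFD+C2 minus HFD+C1. All 6 mice were of strain C57BL/6N, ate a diet with 60% of energy from fat, and were dosed intraperitoneally over 12 weeks. The daily dose was 5 mg/kg for C1 and for C2, so dose and duration were matched. The other 2 groups of the series, HFD without a compound and normal chow (NCD), each held 3 libraries; HFD levels are given below for reference, without a test. Both compounds are known only by code, and the series title calls them CYP4A inhibitors. Sex, age and the vehicle are not given in the sources used here. Replicates are numbered as biological replicates with no animal, litter or day named, so p-values measure the spread between these libraries.

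CYP4A enzymes are cytochrome P450 proteins that add a hydroxyl group to the end of fatty acid chains. In liver, their genes are induced through PPARα when fatty acids are abundant. The liver also makes cholesterol under the control of SREBP2, a membrane-bound transcription factor released when sterols are scarce, and responds to growth hormone through STAT5, which induces its own inhibitors of the SOCS family. Foreign compounds can act on liver genes through nuclear receptors such as PXR, whose best known target in the mouse is Cyp3a11.

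The tables listed 50559 genes, and the 13229 whose counts averaged at least 10 in these libraries were tested. Reads counted in genes ranged from 18858230 to 27369349 per library. HFD+C2 replicate 1 stood apart from the other 5 libraries. Of its reads, 47.1% were not counted in genes, against 27.3% to 28.7% in the other 5. Its log2 values correlated across genes at 0.966 to 0.969 with the other libraries, which correlated at 0.986 to 0.993 with each other; genes are not independent replicates. The first principal component, with 54.7% of the variance, separated this library, and the second, with 17.5%, set HFD+C1 replicate 1 at the end away from the HFD+C2 libraries. The 13 protein-coding genes of the mitochondrial genome summed to 19412 CPM (counts scaled by the TMM-adjusted library size) in HFD+C2 replicate 1 and to 46646 to 73615 CPM in the other 5. Values without these or other libraries are given beside the results that leaving them out moves most; below, a range over libraries left out is that of 6 fits, each without 1 library.

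**Figure D1:**
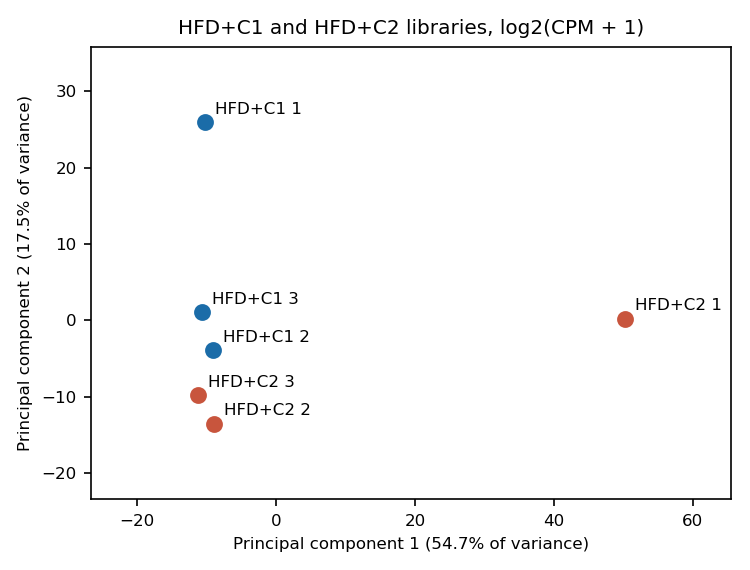
Principal components 1 (x axis) and 2 (y axis) of log2(CPM + 1) over 13229 genes, 1 point per library, blue for HFD+C1 and red for HFD+C2. HFD+C2 replicate 1 lies at 50.2 on component 1, whereas the other 5 libraries lie between -11.2 and -8.92.

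Over all genes, no single gene separated the compounds after adjustment in edgeR with the filter on low counts. With edgeR's quasi-likelihood test and Benjamini-Hochberg adjustment, 0 of 13229 genes were called at an adjusted p under 0.05 (percent called 0), and the smallest adjusted p was 0.841. The unadjusted p was under 0.05 for 608 genes (4.6%), of which 371 were higher (2.8%) and 237 lower (1.79%) in HFD+C2. The higher share was thus 61.0%, against 51.0% under quantile normalization and 47.4% without HFD+C2 replicate 1. The means of 6845 genes (51.7%) were higher, and the median log2 difference was 0.01. Groups did not overlap for 795 genes higher in HFD+C2 (6.01%) and 789 lower (5.96%). DESeq2 called 3 genes, Egfr, Rhbg and Gm33459, the last added here after its value was seen (edgeR log2 difference 2.60, groups not overlapping). edgeR without a filter on low counts called 162, 119 higher and 43 lower. Leaving out HFD+C1 replicate 1 gave 285 genes at an unadjusted p under 0.05, and leaving out HFD+C2 replicate 3 gave 1149. At that threshold 3% of genes were higher and 3.33% lower without HFD+C2 replicate 1, and 1.38% and 0.781% without HFD+C1 replicate 1.

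The precision of these differences can be stated. The median standard error of a log2 difference was 0.23, and the biological coefficient of variation was 0.222. For 9626 genes (72.8%) the 95% interval of the difference lay within 1 on the log2 scale in either direction. For those genes larger differences lie outside the interval, and differences within it are not excluded. No gene named below was called in the edgeR fit with the filter, and each adjusted p that is not printed was 0.841 or more.

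**Figure D2:**
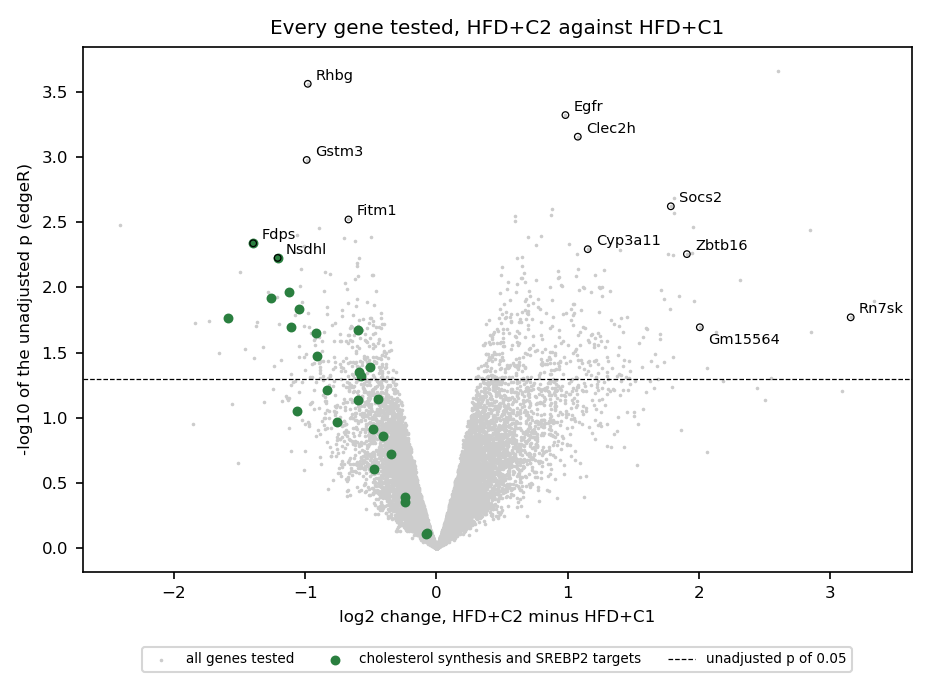
Log2 difference, HFD+C2 minus HFD+C1 (x axis), against -log10 of the unadjusted edgeR p (y axis) for the 13229 genes tested, with the 26 cholesterol synthesis genes in green. All 26 green points lie left of 0, and 13 lie above the dashed line at an unadjusted p of 0.05.

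Genes of cholesterol synthesis and other SREBP2 targets were lower with C2 than with C1. All 26 listed genes were tested and all 26 had a lower mean in HFD+C2, with a median log2 difference of -0.60 and a range of -1.59 to -0.07, where the median over all genes was 0.01. Of the 26, 13 had an unadjusted p under 0.05, all lower, against 1.79% of all genes tested, and groups did not overlap for 8, against 5.96%. edgeR with the filter called 0 of them and without a filter called 11, all lower, against 0.146% of all genes called lower in that fit. The members share regulation and libraries, so they are not independent measurements.

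The difference rested in large part on 1 library. The summed level of the list was 2770, 1415 and 1798 CPM in HFD+C1 replicates 1 to 3 and 1150, 1289 and 1475 CPM in HFD+C2, against 1476, 1659 and 1576 CPM in HFD. The list was highest in HFD+C1 replicate 1, and the remaining HFD+C1 libraries overlapped with HFD+C2. Without HFD+C1 replicate 1 the median log2 difference was -0.31, with 23 of 26 genes lower and 3 at an unadjusted p under 0.05, against 0.781% of all genes lower in that fit. Leaving out HFD+C2 replicate 1 gave a median of -0.59, with 24 of 26 lower and 14 at that threshold (3.33% of all genes). With both left out it was -0.21, with 21 lower and 6 at that threshold (2.24%). Leaving out HFD+C2 replicate 2 gave 7 at that threshold (2.19%) and leaving out HFD+C1 replicate 2 gave 20 (1.42%).

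Fdps encodes farnesyl diphosphate synthase, which makes the isoprenoid precursor of sterols. It was at 278, 93.2 and 124 CPM in HFD+C1 replicates 1 to 3 and at 72.9, 51.1 and 64.2 CPM in HFD+C2, with 103, 121 and 110 CPM in HFD. Every HFD+C2 library was below every HFD+C1 and every HFD library. The log2 difference was -1.40 with a standard error of 0.37 and an unadjusted edgeR p of 0.00458, and -0.79 without HFD+C1 replicate 1.

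Nsdhl, which removes methyl groups from sterol intermediates, was at 35.0, 15.5 and 21.5 CPM in HFD+C1 and at 7.65, 8.60 and 14.9 CPM in HFD+C2. The groups did not overlap, although HFD+C2 replicate 3 came close to HFD+C1 replicate 2. Its log2 difference was -1.21 with a standard error of 0.34. Idi1, which interconverts the isoprenoid building blocks, was at 18.3, 7.69 and 9.85 CPM in HFD+C1 and at 5.15, 3.90 and 7.47 CPM in HFD+C2. Cyp51, the lanosterol demethylase, was at 107, 32.1 and 43.0 CPM in HFD+C1 and at 26.8, 20.1 and 29.1 CPM in HFD+C2. In both genes the groups did not overlap and HFD+C1 replicate 1 was far above the rest. Their log2 differences were -1.12 and -1.26, and -0.67 and -0.57 without that library.

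Hmgcs1 was added after its values were seen, because its promoter is printed. It encodes the cytosolic HMG-CoA synthase at the entry to the pathway. It was at 275, 93.3 and 137 CPM in HFD+C1 and at 104, 60.1 and 119 CPM in HFD+C2, so the groups overlapped. The log2 difference was -0.84 with a 95% interval of -1.73 to 0.05, and -0.29 without HFD+C1 replicate 1.

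The promoters of sterol genes are known to carry binding sites for SREBP and for its partner NF-Y. They are shown because all 26 listed genes had a lower mean in HFD+C2 with all 6 libraries, though not in every fit with libraries left out. RefSeq sequences (GRCm38.p6) from 250 bases before to 50 after the start matched 18 of the 26 genes. The sterol regulatory element was searched as TCACNCCAC and the NF-Y motif as CCAAT, each on both strands. CCAAT was found for 16 of the 18 matched genes (88.9%), against 41.1% of all genes with a promoter and 37.4% of all 32851 promoters. TCACNCCAC was found for 1, Hmgcs1, against 1.44% of genes and 1.24% of promoters. Below are the 250 bases before the start, 5′ to 3′, for Hmgcs1 (chr13:119690101-119690350, plus strand), the only gene with both motifs, and Nsdhl (chrX:72918271-72918520, plus strand), whose groups did not overlap. Capitals mark the matches, CCAAT appearing as ATTGG on the reverse strand, and the matches do not overlap. A match is a description of the letters, not a measured site.
Hmgcs1: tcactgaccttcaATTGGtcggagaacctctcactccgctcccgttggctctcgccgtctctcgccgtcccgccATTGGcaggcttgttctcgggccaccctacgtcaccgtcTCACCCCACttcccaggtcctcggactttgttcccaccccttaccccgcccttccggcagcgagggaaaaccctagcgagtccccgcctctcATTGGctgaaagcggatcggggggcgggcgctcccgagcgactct
Nsdhl: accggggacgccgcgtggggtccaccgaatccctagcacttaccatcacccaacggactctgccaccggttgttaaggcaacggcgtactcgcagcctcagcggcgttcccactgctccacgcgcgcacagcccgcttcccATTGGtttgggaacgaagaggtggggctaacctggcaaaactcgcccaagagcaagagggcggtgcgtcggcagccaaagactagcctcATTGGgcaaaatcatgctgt

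The printed bases of Hmgcs1 hold 3 CCAAT matches and 1 TCACNCCAC match, and those of Nsdhl hold 2 CCAAT matches. Over the whole searched window, which runs on past the start, each gene had 4 CCAAT matches.

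**Figure D3:**
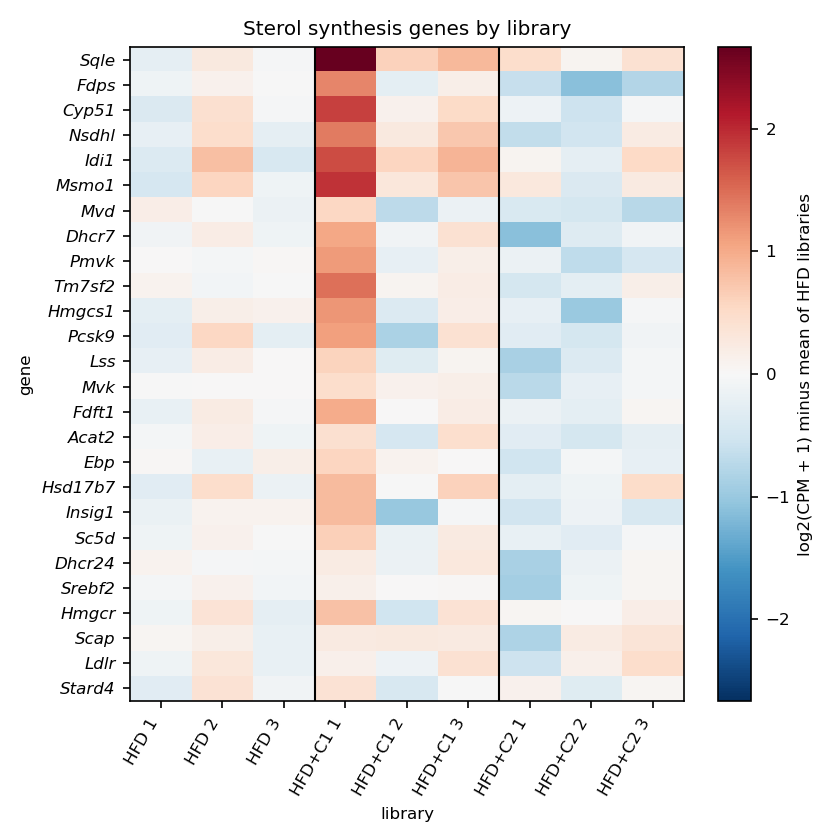
Each row is 1 of the 26 cholesterol synthesis genes and each column 1 library; color gives log2(CPM + 1) minus the mean of the HFD libraries. The HFD+C1 replicate 1 column is the reddest, with a median of 0.84, whereas the other HFD+C1 columns have medians of -0.12 and 0.25 and the HFD+C2 columns -0.36, -0.28 and 0.01.

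Genes of fatty acid and triglyceride synthesis were also lower in HFD+C2 on average, by less. Of 19 tested, 14 had a lower mean, with a median log2 difference of -0.28, and 3 reached an unadjusted p under 0.05, all lower (1.79% of all genes tested). The median ranged from -0.51 to -0.18 over libraries left out. It was -0.18 without HFD+C1 replicate 1 or HFD+C1 replicate 3, with 0 at that threshold in either fit, and -0.51 without HFD+C1 replicate 2, with 9 lower (1.42% of all genes in that fit).

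Acacb, the acetyl-CoA carboxylase that restrains mitochondrial fat uptake, was at 25, 8.71 and 22.2 CPM in HFD+C1 and at 10.2, 7.95 and 10.5 CPM in HFD+C2. HFD+C1 replicate 2 lay within the range of HFD+C2. Fasn, the fatty acid synthase, also overlapped because of HFD+C1 replicate 2, which was below all HFD+C2 libraries, with 265, 87.0 and 284 CPM in HFD+C1 and 94.0, 133 and 122 CPM in HFD+C2. The log2 differences were -0.97 for Acacb and -0.86 for Fasn, with 95% intervals of -1.74 to -0.19 and -1.74 to 0.01. Acss2, which makes acetyl-CoA from acetate, differed by -0.67, and Me1, a malic enzyme that supplies NADPH, by -0.81 (-0.53 without HFD+C2 replicate 2), the groups overlapping in both.

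Among 24 tested genes of lipid droplets and fatty acid uptake, 15 were lower, with a median of -0.11, and 3 reached an unadjusted p under 0.05, all lower (1.79% of all genes tested). The median was not stable in sign: it was -0.21 without HFD+C2 replicate 1, with 6 at that threshold, all lower (3.33%), and 0.05 without HFD+C2 replicate 2, with 1 in each direction (3.49% higher, 2.19% lower). There were 4 in each direction without HFD+C2 replicate 3 (5.61% and 3.07%), and without HFD+C1 replicate 3 the median was 0.03, with 1 lower (1.24%). Fitm1, which belongs to a family of proteins that promote droplet formation, was at 42.8, 34.2 and 37.4 CPM in HFD+C1 and at 19.9, 26.9 and 25 CPM in HFD+C2. HFD libraries held 54.4, 34.1 and 46.8 CPM, so every HFD+C2 library was below both other groups. The log2 difference was -0.67 with a standard error of 0.17 and an unadjusted edgeR p of 0.00301, and it was -0.56 and -0.58 without either library that stood apart. Lipe, the hormone-sensitive lipase, differed by -0.65 and Plin3, a droplet coat protein, by -0.42, without overlap between the groups. Fatty acid oxidation genes differed by a median of -0.10, with 0 of 24 at an unadjusted p under 0.05 (4.6% of all genes tested) and 0 to 2 over libraries left out (2.16% to 8.68%). For 20 of these 24 the 95% interval lay within 1 on the log2 scale.

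The Cyp4a genes themselves, whose products the compounds are said to inhibit, overlapped between the groups. Of 8 listed genes 6 were tested; all 6 had a lower mean in HFD+C2, 0 reached an unadjusted p under 0.05 (4.6% of all genes tested) and the groups overlapped in all 6 (they did not for 6.01% higher and 5.96% lower). Without HFD+C1 replicate 3, 1 was lower at that threshold (1.24%). The median log2 difference was -0.40, and -0.16 and -0.14 without HFD+C1 replicate 2 and HFD+C2 replicate 1. Cyp4a10 was at 268, 253 and 277 CPM in HFD+C1 and at 166, 281 and 223 CPM in HFD+C2, with HFD+C2 replicate 1 the lowest. Its log2 difference was -0.25, with -0.45 to -0.08 over libraries left out. Cyp4a14 was at 352, 223 and 289 CPM in HFD+C1 and at 236, 374 and 249 CPM in HFD+C2, a log2 difference of -0.01 with a 95% interval of -0.56 to 0.54. The sign for Cyp4a14 turned positive with upper-quartile scaling (0.01) and with quantile normalization (0.01), and its value ranged from -0.25 to 0.16 over libraries left out.

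Cyp4a12a, which is male-biased in mice, differed by -0.56 with a 95% interval of -1.18 to 0.05. It was at 53.3, 90.1 and 39.3 CPM in HFD+C1 and at 39.8, 39.3 and 44.4 CPM in HFD+C2. Only HFD+C1 replicate 2 was well above the others, and without it the difference was -0.17. Cyp4a12b, Cyp4a31 and Cyp4a32 differed by -0.44, -0.49 and -0.36, with intervals that included 0. The values were -0.03, -0.16 and -0.15 without HFD+C1 replicate 2, and -0.14, -0.35 and -0.14 without HFD+C2 replicate 1. These genes are near-identical copies, and how reads were divided between them is not given in the sources used here.

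Among genes higher with C2, Egfr had the smallest unadjusted p of those whose counts averaged at least 50 and whose groups did not overlap. Egfr encodes the epidermal growth factor receptor, which hepatocytes carry in large numbers. It was at 92.5, 95.2 and 69.9 CPM in HFD+C1 and at 169, 147 and 192 CPM in HFD+C2. In HFD it was at 41.1, 148 and 46.8 CPM, so HFD replicate 2 reached the HFD+C2 range. The log2 difference was 0.98 with a standard error of 0.18 and a 95% interval of 0.57 to 1.40. It was 0.98 without HFD+C2 replicate 1 and 1.04 without HFD+C1 replicate 1. Egfr was higher in 3 of 3 HFD+C2 libraries than in any HFD+C1 library (unadjusted edgeR p 0.000475, adjusted p 0.841; DESeq2 adjusted p 0.0101).

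Growth hormone and STAT5 feedback genes did not move as 1 group. Of 14 tested, 10 were higher, with a median of 0.21 (0.11 without HFD+C1 replicate 1), and 3 reached an unadjusted p under 0.05, all higher (2.8% of all genes tested). Socs2, an inhibitor of growth hormone signaling and itself a STAT5 target, was at 1.02, 0.879 and 1.58 CPM in HFD+C1 and at 3.71, 2.05 and 6.18 CPM in HFD+C2. The groups did not overlap, and HFD was at 3.43, 12.0 and 3.63 CPM, again highest in replicate 2. The difference on the log2 scale was 1.79 with a standard error of 0.43, and 1.83 and 1.70 without either library that stood apart.

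Cish, another feedback inhibitor of the same family, was not higher with C2. It was at 2.41, 0.396 and 4.70 CPM in HFD+C1 and at 1.06, 1.17 and 1.16 CPM in HFD+C2, with 10.9, 21.6 and 10.3 CPM in HFD. HFD+C1 libraries lay on both sides of HFD+C2, and libraries of both compound groups were below all HFD libraries. The difference on the log2 scale was -1.12 with a 95% interval of -2.61 to 0.36, and -0.32 without HFD+C1 replicate 3. Igfbp1 and Igfbp3, binding proteins of insulin-like growth factors, differed by 0.72 and 0.44 without overlap.

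The STAT5 motif was searched as TTCNNNGAA, which reads the same on both strands, in the same RefSeq windows. It was found for 4 of 13 matched genes of this list (30.8%), against 9.55% of all genes with a promoter and 8.30% of all promoters. The 30 bases of Cish below (chr9:107296654-107296683, plus strand, beginning 5 bases before the RefSeq start) are shown because they hold 2 matches, in capitals, in the feedback gene that differed in sign from Socs2.
Cish: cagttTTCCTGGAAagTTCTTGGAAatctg

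Male-biased genes and targets of pulsatile growth hormone had a median log2 difference of 0.52, with 17 of 20 higher and 2 at an unadjusted p under 0.05, both higher (2.8% of all genes tested). The summed level of this list was 33156 CPM in HFD+C2 replicate 1 and 13009 to 19242 CPM in the other 5 libraries. Without HFD+C2 replicate 1 the median was -0.08, with 9 of 20 higher, and without HFD+C1 replicate 2 it was 0.98, with 18 higher. The count at that threshold was also unstable: 0 without HFD+C1 replicate 1 (1.38% of all genes higher in that fit), 4 higher without HFD+C1 replicate 2 (2.11%) or HFD+C2 replicate 2 (3.49%), and 0 higher (2.5%) and 3 lower (2.24%) without both libraries numbered 1. The part that this library's high unassigned share plays in the list was not tested. Slco1a1, a male-biased organic anion transporter, was at 38.1, 95.5 and 46.3 CPM in HFD+C1 and at 130, 85.5 and 128 CPM in HFD+C2, a log2 difference of 0.93, and 1.44 without HFD+C1 replicate 2. Ugt2b38, a glucuronosyltransferase, was below 2 CPM in all 6 libraries and differed by 1.73 with a standard error of 0.55.

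Cyp3a11, the mouse counterpart of the main human drug-metabolizing P450, was lower in HFD+C1 than in both other groups. It was at 304, 371 and 489 CPM in HFD+C1, at 1154, 929 and 505 CPM in HFD+C2 and at 915, 701 and 976 CPM in HFD. The groups of the comparison did not overlap, though HFD+C2 replicate 3 was close to HFD+C1 replicate 3. The difference on the log2 scale was 1.15 with a standard error of 0.31 and an unadjusted edgeR p of 0.00508, and 0.88 without HFD+C2 replicate 1. Nr1i2, which encodes PXR, was at 37.9, 45.0 and 41.4 CPM in HFD+C1 and at 54.5, 52.6 and 49.8 CPM in HFD+C2, a log2 difference of 0.34 without overlap.

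The list of xenobiotic P450 genes and their receptors, which holds Cyp3a11 and Nr1i2, went both ways. Of 25 tested, 13 were higher and 12 lower, with a median of 0.04, and of -0.19 to 0.09 over libraries left out. At an unadjusted p under 0.05, 4 were higher (2.8% of all genes tested) and 1 lower (1.79%), and without HFD+C1 replicate 1 these counts were 1 (1.38%) and 0 (0.781%). Cyp3a59, a near relative of Cyp3a11, differed by 0.61 with overlap. Cyp2a5, the coumarin hydroxylase, was at 463, 511 and 457 CPM in HFD+C1 and at 275, 400 and 331 CPM in HFD+C2, a log2 difference of -0.51 without overlap. Conjugating enzymes and carboxylesterases had a median of 0.01 over 29 genes, with 1 gene at that threshold in each direction (2.8% higher, 1.79% lower). Over libraries left out there were 0 to 2 in each (1.38% to 5.61% of all genes higher, 0.781% to 3.33% lower). Of the 29, 24 had a 95% interval within 1 on the log2 scale. Ces1g, a carboxylesterase that hydrolyzes lipids, differed by -0.62 without overlap.

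Of the 4 mu-class glutathione transferases on the list of NRF2 targets and glutathione genes, 2 had an unadjusted p under 0.05, both lower. Gstm3 was at 55.4, 47.4 and 69.1 CPM in HFD+C1 and at 22.2, 34.3 and 30.1 CPM in HFD+C2, a log2 difference of -0.99 with a standard error of 0.21 and an unadjusted edgeR p of 0.00105. In HFD it was at 127, 44.2 and 113 CPM, with replicate 2 below the others. Gstm2 was at 129, 104 and 114 CPM in HFD+C1 and at 74.4, 85.3 and 66.1 CPM in HFD+C2, a log2 difference of -0.62 with a standard error of 0.16. Neither pair of groups overlapped, and the differences were -0.83 and -0.62 without HFD+C2 replicate 1. Gstm1 and Gstm4 differed by -0.49 and -0.03 and did not reach that threshold. Without HFD+C2 replicate 1 Gstm1 differed by -0.20, and Gstm4 ranged from -0.17 to 0.10 over libraries left out. The mu-class genes are similar in sequence, and how shared reads were treated is not given in the sources used here. In the whole list, 19 of 27 were lower, with a median of -0.23. There 3 reached an unadjusted p under 0.05 and 8 did not overlap, all lower, against 1.79% and 5.96% of all genes tested. Leaving out HFD+C2 replicate 1 gave 7 lower at that threshold (3.33%), and leaving out HFD+C1 replicate 1 gave 2 (0.781%). NRF2 is the transcription factor that induces such genes under electrophile stress.

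Apart from Gm33459, Rhbg had the smallest unadjusted p of the named genes. It encodes an ammonia transporter of hepatocytes near the central vein. It was at 8.09, 8.44 and 7.81 CPM in HFD+C1, at 4.28, 4.32 and 3.73 CPM in HFD+C2 and at 8.14, 7.69 and 7.21 CPM in HFD. The 3 HFD+C2 libraries lay together below all libraries of both other groups. The difference on the log2 scale was -0.98 with a 95% interval of -1.37 to -0.60 and an unadjusted edgeR p of 0.000273, and it was -1.01 and -0.98 without either library that stood apart. Rhbg was also called by DESeq2 (adjusted p 0.0349). Of the 20 genes of pericentral and periportal zones, Rhbg included, 12 were lower, the median was -0.18, and Rhbg alone reached an unadjusted p under 0.05 with all 6 libraries (1.79% of all genes tested were lower). Leaving out HFD+C2 replicate 1 gave a median of -0.05, with 3 higher (3% of all genes in that fit) and 4 lower (3.33%) at that threshold. Leaving out HFD+C2 replicate 3 gave -0.24, with 1 higher (5.61%) and 5 lower (3.07%), and leaving out HFD+C1 replicate 2 gave -0.05, with 1 lower (1.42%). Glul, the glutamine synthetase of the same cells, was at 554, 588 and 529 CPM in HFD+C1 and at 453, 287 and 500 CPM in HFD+C2, a log2 difference of -0.43 with a 95% interval of -0.94 to 0.08, and -0.23 without HFD+C2 replicate 2. In bulk liver, fewer cells of a type and less RNA per cell cannot be told apart.

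Sterol export and bile acid genes gave single differences in both directions. Abca1, which exports cholesterol to apolipoprotein A-I and is a target of the oxysterol receptor LXR, was at 44.1, 51.3 and 47.3 CPM in HFD+C1 and at 63.2, 82.7 and 62.4 CPM in HFD+C2. The groups did not overlap, and the log2 difference was 0.55 with a standard error of 0.16. Pltp, the phospholipid transfer protein and also an LXR target, went the other way, with 24.4, 17.3 and 19.7 CPM in HFD+C1 and 10.5, 13.9 and 13.3 CPM in HFD+C2, a log2 difference of -0.70 without overlap. The 11 LXR targets had a median of 0.06, and of -0.01 to 0.17 over libraries left out. At an unadjusted p under 0.05, 1 was higher (2.8% of all genes tested) and 1 lower (1.79%). Without HFD+C2 replicate 1, 4 were higher (3%) and 1 lower (3.33%) at that threshold. Abcg5, a canalicular sterol exporter, differed by 0.66 with a 95% interval of -0.00 to 1.33, and HFD+C2 replicate 2 was the highest library, without which it differed by 0.25.

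Among 20 genes of bile acid synthesis and transport the median was 0.02, with 2 higher (2.8% of all genes tested) and 1 lower (1.79%) at an unadjusted p under 0.05. The median was -0.01 to 0.09 over libraries left out. Leaving out HFD+C1 replicate 1 gave 0 in either direction (1.38% higher, 0.781% lower), and leaving out HFD+C2 replicate 3 gave 0 higher (5.61%) and 4 lower (3.07%). Cyp8b1, the sterol 12-alpha hydroxylase that directs bile acid synthesis to cholic acid, was at 476, 369 and 472 CPM in HFD+C1 and at 290, 196 and 348 CPM in HFD+C2. The groups did not overlap, and the log2 difference was -0.66 with a standard error of 0.23. Slco1a4, a bile acid and drug transporter, differed by 0.78 with overlap, and by 1.10 without HFD+C2 replicate 1 and 0.50 without HFD+C2 replicate 2.

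**Figure D4:**
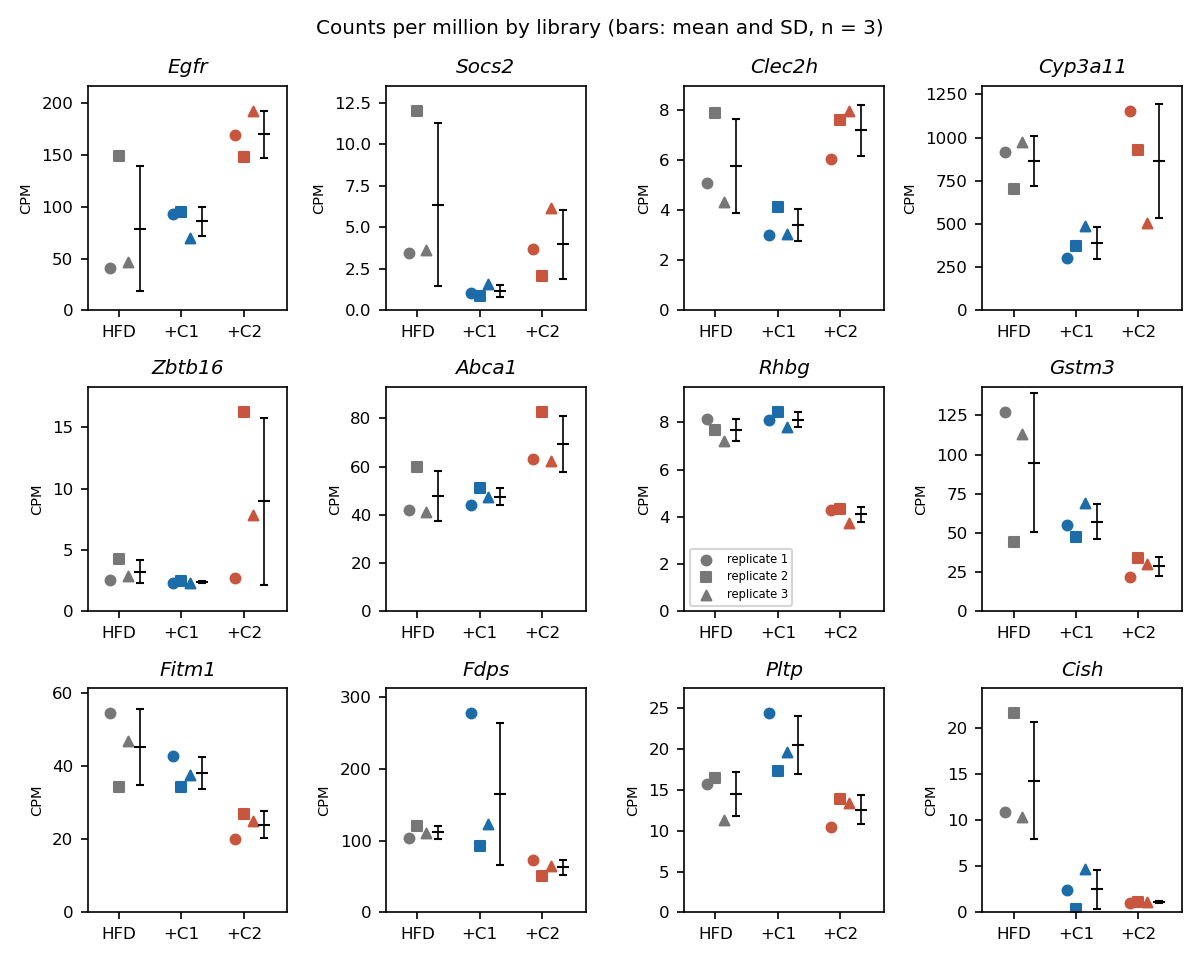
CPM (y axis, from 0) in each library of HFD, HFD+C1 and HFD+C2 for 12 genes; symbols mark replicates 1 to 3 and bars the mean and SD (n = 3). The HFD+C1 and HFD+C2 points do not overlap for any gene but Cish, and for Egfr and Socs2 HFD replicate 2 lies far above the other HFD libraries. Egfr, Socs2, Clec2h, Rhbg, Gstm3, Fitm1, Fdps and Pltp were named by a rule that required groups not to overlap. Over all genes tested, groups did not overlap for 6.01% higher and 5.96% lower in HFD+C2.

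Zbtb16, a zinc finger transcription factor induced by glucocorticoids, was at 2.33, 2.51 and 2.35 CPM in HFD+C1 and at 2.74, 16.2 and 7.87 CPM in HFD+C2. HFD held 2.53, 4.27 and 2.92 CPM. HFD+C2 replicates 2 and 3 were far above all other libraries of the 3 groups, and HFD+C2 replicate 1 was not. The difference on the log2 scale was 1.91 with a standard error of 0.53. Without HFD+C2 replicate 1 it was 2.33 and the only call of edgeR in that fit, and without HFD+C2 replicate 2 it was 1.15. The 13 glucocorticoid-responsive and metallothionein genes had a median of 0.15 (0.26 without HFD+C2 replicate 1, and -0.28 without HFD+C2 replicate 2). At an unadjusted p under 0.05 there was 1 in each direction (2.8% of all genes tested higher, 1.79% lower). Over libraries left out there were 1 to 2 in each (1.38% to 5.61% of all genes higher, 0.781% to 3.33% lower).

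Genes of the unfolded protein response, which eases protein overload of the endoplasmic reticulum, mostly had higher means in HFD+C2, by small amounts and not in every library. Of 23 tested, 21 had a higher mean, with a median of 0.29, 0.07 without HFD+C2 replicate 2 and 0.44 without HFD+C2 replicate 3; the mean was higher for 51.7% of all genes. At an unadjusted p under 0.05, 1 was higher (2.8% of all genes tested), and 2 did not overlap (6.01%); without HFD+C2 replicate 1, 4 were higher at that threshold (3%), without HFD+C2 replicate 3, 6 (5.61%), and without HFD+C2 replicate 2, 0 were higher (3.49%) and 1 lower (2.19%). The summed level was 6597, 7048 and 5515 CPM in HFD+C1 and 9107, 8601 and 5587 CPM in HFD+C2, so HFD+C2 replicate 3 was below 2 of the HFD+C1 libraries. Herpud1, a component of endoplasmic reticulum degradation, was at 161, 199 and 167 CPM in HFD+C1 and at 211, 381 and 253 CPM in HFD+C2, with HFD+C2 replicate 2 the highest. Its log2 difference was 0.68 with a standard error of 0.23, and 0.40 without that library. The chaperone partner Dnajb9 differed by 0.49 (0.18 without the same library) and Chac1, which degrades glutathione, by 0.57, with intervals that included 0.

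Acute phase and complement genes gave 3 at an unadjusted p under 0.05, all lower (1.79% of all genes tested), among 28 with a median of -0.05, and of -0.18 to 0.08 over libraries left out. There were 5 without HFD+C2 replicate 1, all lower (3.33%), and 2 without HFD+C1 replicate 2 (1.42%). Lcn2, which binds bacterial siderophores, was at 16.9, 50.5 and 19.8 CPM in HFD+C1 and at 8.47, 13.9 and 13.2 CPM in HFD+C2, a log2 difference of -1.29. Saa2, a serum amyloid, was at 26.5, 184 and 37.3 CPM in HFD+C1 and at 34.5, 17.4 and 26.7 CPM in HFD+C2, a log2 difference of -1.66. In both genes HFD+C1 replicate 2 was the highest library, and without it the differences were -0.62 for Lcn2 and -0.28 for Saa2. For Saa2 the groups overlapped. Orm3, an acid glycoprotein gene, differed by -0.98 without overlap.

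Genes called for either compound against HFD alone numbered 8. Of these, Cyp3a11, Phlda1, Mir6236 and Gm15564 had groups that did not overlap and an unadjusted p under 0.05. Gadd45g, Cish, Serpina12 and Adgrv1 overlapped. Over all genes tested, 4.6% reached that threshold, and groups did not overlap for 6.01% higher and 5.96% lower. Without HFD+C2 replicate 1, Mir6236 and Gm15564 differed by 0.27 and 0.35. The 8 were called in comparisons that used these same HFD+C1 and HFD+C2 libraries, so the direct values are not independent of that choice. Those comparisons also share the HFD libraries, so only the direct values are given. Gadd45g, a stress-induced growth regulator, was at 2.99, 3.56 and 3.17 CPM in HFD+C1 and at 4.0, 3.37 and 3.93 CPM in HFD+C2, a log2 difference of 0.22 with a 95% interval of -0.24 to 0.67. HFD libraries, at 20.4, 10.9 and 19.6 CPM, were above both groups. Phlda1, a pleckstrin-homology protein of the early growth factor response, was at 25.9, 28.5 and 28.8 CPM in HFD+C1 and at 18.7, 18.7 and 22.1 CPM in HFD+C2, with 70.0, 83.0 and 65.9 CPM in HFD. Here the compound groups did not overlap, at a log2 difference of -0.48 with a standard error of 0.14 and an unadjusted edgeR p of 0.00809. Cdkn1a, the p21 cell cycle inhibitor, and Jund, an AP-1 subunit, were lower in the same way, by -0.44 and -0.78, without overlap; Jund differed by -0.51 without HFD+C1 replicate 1 and by -0.50 without HFD+C2 replicate 1. With Phlda1, both belong to the immediate-early and stress list, where 3 of 22 reached an unadjusted p under 0.05, all lower (1.79% of all genes tested), and the median was -0.02, and -0.19 to 0.02 over libraries left out.

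Serpina12, an insulin-sensitizing serpin, and Adgrv1, an adhesion receptor, did not separate the groups. Serpina12 was at 3.86, 4.84 and 3.93 CPM in HFD+C1 and at 16.2, 1.02 and 6.10 CPM in HFD+C2, so the HFD+C2 libraries lay on both sides. Its log2 difference was 0.87 with a 95% interval of -0.72 to 2.46, and -0.25 and 1.40 without HFD+C2 replicate 1 and replicate 2. Adgrv1 differed by 0.07 with a 95% interval of -0.72 to 0.85, and by -0.29 to 0.41 over libraries left out.

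Further genes of the 10 with the smallest unadjusted p in each direction, among those whose groups did not overlap and whose counts averaged at least 50, varied in function. Higher in HFD+C2 were Clec2h, a C-type lectin, at 1.08, Mbd1, which binds methylated DNA, at 0.60, St3gal4, a sialyltransferase, at 0.60, and Klf10, a TGF-beta-inducible factor, at 0.70. Fgd5, a guanine exchange factor of endothelial cells, differed by 0.79, Pms1, a mismatch repair homolog, by 0.88, Etfbkmt, a lysine methyltransferase, by 0.87, and the pseudogene Cyp2d36-ps by 1.81. Their standard errors ranged from 0.15 to 0.42. Cyp2d36-ps has near-identical relatives, so its reads may be shared.

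Lower in HFD+C2 were Ucp2, a mitochondrial carrier, at -1.01, BC049987 at -0.89, Slc25a45, a mitochondrial carrier, at -0.50, and Ttll12 at -0.59. Slc25a45 had little spread: it was at 28.9, 27.1 and 28.9 CPM in HFD+C1, at 19.5, 20.3 and 20.3 CPM in HFD+C2, and at 24.0, 23.2 and 23.2 CPM in HFD. The HFD libraries lay between the compound groups. Its log2 difference had a standard error of 0.13 and a 95% interval of -0.79 to -0.20.

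RNA derived from ribosomal RNA and nuclear-retained RNA set HFD+C2 replicate 1 apart. All 11 tested members of this list were higher in HFD+C2, with a median log2 difference of 2.01, and 6 reached an unadjusted p under 0.05 (2.8% of all genes tested were higher). The median without HFD+C2 replicate 1 was 0.06, with 5 of 10 higher and 2 at that threshold (3%). Leaving out any 1 HFD+C1 library left 1 to 2 at that threshold (1.38% to 2.11% of all genes higher in those fits). Leaving out HFD+C2 replicate 2 or replicate 3 gave 9 (3.49% and 5.61%). Gm15564 was at 29.7, 31.1 and 34.6 CPM in HFD+C1 and at 302, 46.7 and 34.8 CPM in HFD+C2, and Mir6236 at 33.6, 38.7 and 39.6 CPM and at 401, 49.8 and 40.4 CPM. The log2 differences of 2.01 and 2.13 were 0.35 and 0.27 without that library. Rn7sk, the 7SK RNA that regulates transcription elongation, was at 306 CPM in HFD+C2 replicate 1 and at 12.1 to 17.1 CPM in the other 5 libraries. The nuclear RNA Malat1, at 272, 244 and 214 CPM in HFD+C1 and 583, 346 and 321 CPM in HFD+C2, differed by 0.78, and by 0.45 without that library.

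Marker genes were read beside these results, and their part in them was not tested. The 14 hepatocyte markers summed to 127113 to 140785 CPM in HFD+C1 and to 100396 to 180552 CPM in HFD+C2, lowest in HFD+C2 replicate 1, with a median log2 difference of -0.05, and of 0.13 without that library and -0.26 without HFD+C2 replicate 2. Kupffer cell and macrophage markers differed by a median of -0.19 (-0.34 without HFD+C2 replicate 1, and -0.03 without HFD+C2 replicate 3) over 16 tested of 18, with sums of 369 to 478 CPM and 296 to 572 CPM. Endothelial markers differed by 0.17 (0.05 without HFD+C1 replicate 1) over 13, with sums of 161 to 184 CPM and 165 to 203 CPM. Stellate cell markers differed by 0.31 (0.09 without HFD+C2 replicate 1) over 10, with sums of 197 to 234 CPM and 226 to 257 CPM. Cholangiocyte markers differed by -0.19 over 7 (-0.53 without HFD+C2 replicate 1, and -0.05 without HFD+C1 replicate 2). Erythroid markers differed by 0.27 over 5 (0.09 without HFD+C2 replicate 2, and 0.63 without both libraries numbered 1). T, NK and B cell markers differed by -0.18 over 9 (-1.03 to 0.05 over libraries left out). Neutrophil markers summed to 7.27 CPM in HFD+C2 replicate 1 and to 2.05 to 4.22 CPM in the other 5 libraries. Of the adipose markers, Adipoq, Retn, Ucp1 and Nnat had at most 3 counts in every library, as did 14 of 16 pancreas and gut markers. Other members were present. The adipose list summed to 2856 to 3337 CPM in HFD+C1 and to 2668.5 to 3381 CPM in HFD+C2. The pancreas and gut list summed to 20.2 to 48.9 CPM and 27.1 to 38.9 CPM. Of the adipose markers 4 were tested, 2 higher and 2 lower, with a median of 0.04, and of -0.15 to 0.21 over libraries left out.

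Lyve1, a marker of sinusoidal endothelium, was at 1.97, 2.42 and 3.93 CPM in HFD+C1 and at 5.82, 5.64 and 5.14 CPM in HFD+C2, a log2 difference of 1.01 without overlap. Vwf, a marker of the endothelium of larger vessels, went the other way, at 7.11, 6.11 and 6.79 CPM and at 4.81, 4.70 and 4.82 CPM, a log2 difference of -0.48 without overlap. The immunoglobulin loci Igh and Igk, marks of plasma cells, differed by -1.37 and -1.32 with overlap. HFD+C1 replicate 1 was the highest library for both, and without it they differed by -0.92 and -0.80. Another such locus, Igl, was added here after its value was seen. Its log2 difference was -2.41 without overlap (unadjusted edgeR p 0.0033, adjusted p 0.841). The counts of such loci may be split between similar segments.

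**Figure D5:**
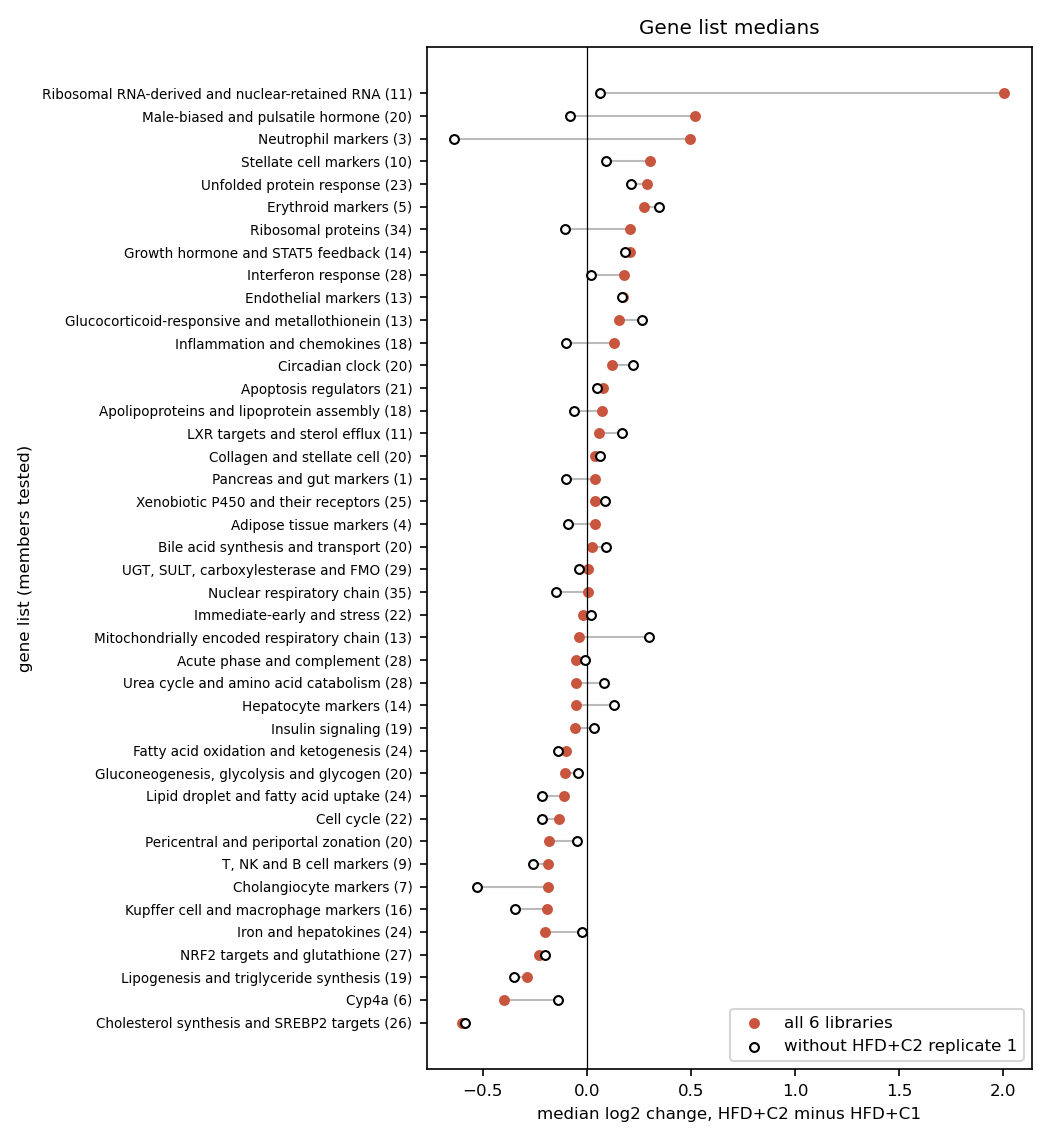
Median log2 difference, HFD+C2 minus HFD+C1 (x axis), of the 42 gene lists (y axis, members tested in parentheses), with all 6 libraries (filled) and without HFD+C2 replicate 1 (open). Among lists of more than 3 genes the cholesterol list is lowest in both, at -0.60 and -0.59, whereas the ribosomal RNA-derived list goes from 2.01 to 0.06. The fit without HFD+C1 replicate 1 is not drawn. There the cholesterol list was at -0.31 and the Cyp4a list lower, at -0.50. Without both libraries numbered 1 the cholesterol list was at -0.21.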

How the data were processed

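Liver RNA was sequenced in 4 groups of 3 libraries, and the 6 libraries of HFD+C1 and HFD+C2 were compared. The authors deposited 3 tables of read counts per gene symbol; the values are whole numbers with unequal totals, although the tables are called normalized, and the HFD columns repeated across the tables differ in 0 cells. Of the value columns, 0 were unmapped to a sample. Per the submitters' processing notes, Trimmomatic 0.39, STAR 2.7, DESeq2 and the build mm10 were used, with no role or order given; the counting rule and use of strand are not given in the sources used here. HFD+C1 and HFD+C2 columns were joined by symbol. The 4 rows that name no gene entered neither library sizes nor tests; they held 27.3% to 28.7% of the reads in 5 of the libraries and 47.1% in HFD+C2 replicate 1.

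Genes averaging at least 10 counts were scaled by TMM and tested in edgeR 4.0.16 (R 4.3.3) by its quasi-likelihood test, with no covariates, Benjamini-Hochberg adjustment over all genes tested and a call at an adjusted p under 0.05. The standard error is the log2 difference divided by the square root of the F statistic. CPM of HFD libraries were put on the same TMM scale. A floor of 3 counts corresponds to 0.110 to 0.159 CPM in the 6 libraries; it covers counting error only. Alternatives were median-ratio and upper-quartile scaling, quantile normalization or limma 3.58.1 on log2(count + 1), limma-voom with library weights, DESeq2 1.42.0, robust dispersions, other filters, fits with 9 or 12 libraries, a replicate block and leaving out each library. Leaving out both libraries numbered 1 was chosen after seeing the data. The edgeR step was tested on simulated data.

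The members and the gene lists were chosen with earlier results of these data known. Named genes were the 10 higher and the 10 lower with the smallest unadjusted p among those averaging at least 50 counts with no overlap, the tested Cyp4a genes, up to 4 genes per list with the smallest unadjusted p, and 8 genes called for either compound against HFD. Rn18s-rs5, Rpph1, Hmgcs1, Gm33459 and Igl were added after their values were seen. The members of lists overlap.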

Additional observations from a re-analysis of the deposited data

Results flagged for a closer look

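HFD+C2 replicate 1 held more unassigned reads of 3 classes than any HFD library. Ambiguous reads were 9.04% of its total, against 3.91% to 4.96% in HFD. Reads outside annotated features were 10.9%, against 4.92% to 6.84%, and unmapped reads 21.9%, against 12.8% to 16.6%. These classes entered no test. In the same library Rn18s-rs5, a repeat of ribosomal RNA sequence, was at 110138 CPM, against 8976 to 11639 CPM in the other 5 libraries, and Rpph1, the RNA of ribonuclease P, was at 108 CPM, against 7.15 to 10.5 CPM.

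For 3 named genes the HFD+C1 and HFD+C2 libraries lay on opposite sides of all HFD libraries. Fgd5 differed by 0.79, with HFD between 3.07 and 3.82 CPM, Slc25a45 by -0.50, with HFD between 23.2 and 24.0 CPM, and Ttll12 by -0.59, with HFD between 5.99 and 7.63 CPM. The difference between the compounds was tested directly in edgeR, and the adjusted p was 0.841 for each; the opposite sides against HFD were not tested.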

How the results depend on the processing

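edgeR called 0 genes with the filter, and the count was 3 with DESeq2, 162 without a filter on low counts and 0 to 1 when each library was left out in turn. The count at an unadjusted p under 0.05, 608 genes, was 1688 without a filter and 285 to 1149 when each library was left out; it was 285 without HFD+C1 replicate 1 and 1149 without HFD+C2 replicate 3. With the replicate number as a block it was 510, with 0 called. Deviations from the group mean correlated across genes at 0.06, -0.02 and 0.11 between libraries of the same number, for replicates 1 to 3. Between libraries of different numbers the values were -0.11 to 0.02. Whether the numbers pair the libraries cannot be told from these values. Of the 608 genes, 61.0% were higher in HFD+C2; of those at the same threshold, 51.0% were higher under quantile normalization and 47.4% without HFD+C2 replicate 1. No scaling moved the median of all genes by over 0.1. Of 86 genes followed, 82 kept their direction in every other setting that gave them a value; 77 had a value in all 19, and 74 of those kept it. Of 42 list medians, 19 kept their sign in those settings, and 14 changed it without HFD+C2 replicate 1. The cause of these shifts was not tested.

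Cyp4a14 turned positive with upper-quartile scaling (0.00864), quantile normalization (0.00583), library weights (0.19), a mean of at least 50 counts (0.00559), without HFD+C1 replicate 1, HFD+C2 replicate 1 or HFD+C2 replicate 3 (0.16, 0.11 and 0.0825) and without both libraries numbered 1 (0.29), with -0.25 to 0.16 over the libraries left out. Adgrv1 turned negative with quantile normalization (-0.0421), limma with a trend (-0.0631), library weights (-0.46), the block (-0.0413), without HFD+C1 replicate 1 (-0.0334) or HFD+C2 replicate 1 (-0.29) and without both (-0.39); leaving out each library gave -0.29 to 0.41. Serpina12 turned negative with library weights (-0.77), without HFD+C2 replicate 1 (-0.25) and without both (-0.31), with -0.25 to 1.40 over the libraries left out, and Rn18s-rs5 without HFD+C2 replicate 1 (-0.0975) and without both (-0.11), with -0.0975 to 2.54 over the libraries left out.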

Other observations

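With all 6 libraries, other lists gave few differences. Interferon response genes had a higher mean in HFD+C2 for 22 of 28, with a median of 0.18, and of 0.02 without HFD+C2 replicate 1 and 0.31 without HFD+C2 replicate 2; 2 were higher at an unadjusted p under 0.05 (2.8% of all genes tested), but 0 without HFD+C1 replicate 3 (1.99%), and 3 were higher (3%) and 1 lower (3.33%) without HFD+C2 replicate 1. Rsad2, an antiviral enzyme, and Iigp1, an interferon-induced GTPase, differed by 0.48 and 0.37 without overlap. Among 21 apoptosis regulators, Bcl2, which blocks apoptosis, was at 0.802, 0.572 and 0.408 CPM in HFD+C1 and at 1.30, 1.17 and 1.04 CPM in HFD+C2. Its log2 difference was 0.95 with a 95% interval of 0.14 to 1.77. Xiap, an inhibitor of caspases, differed by 0.41, and the list median was 0.08 (0.05 to 0.15 over libraries left out), with 2 higher at that threshold (2.8%), and 0 without HFD+C1 replicate 3 (1.99%).

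The list of iron genes and hepatokines went both ways. Of 24, 18 had a lower mean, with a median of -0.20, and of -0.30 without HFD+C2 replicate 3 and -0.02 without HFD+C2 replicate 1. At an unadjusted p under 0.05, 1 was higher (2.8% of all genes tested) and 2 lower (1.79%), and without HFD+C2 replicate 3, 2 were higher (5.61%) and 6 lower (3.07%). Hjv, the hemojuvelin co-receptor that drives hepcidin, was at 82.9, 71.0 and 64.3 CPM in HFD+C1 and at 42.3, 44.5 and 57.5 CPM in HFD+C2, a log2 difference of -0.60 without overlap. Ftl1, the ferritin light chain, differed by -0.66, and by -0.42 without HFD+C2 replicate 1.

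Clock genes had a median of 0.12, with 14 of 20 higher; at an unadjusted p under 0.05, 0 were higher (2.8% of all genes tested) and 1 lower (1.79%). Without HFD+C2 replicate 1 the median was 0.22, with 16 of 20 higher, and 6 were higher (3% of all genes in that fit) and 1 lower (3.33%) at that threshold. The median was -0.05 without HFD+C2 replicate 2, with 8 of 19 higher, and 1 was higher (3.49%) and 0 lower (2.19%) at that threshold. The gene at that threshold with all 6 libraries, Npas2, a partner of BMAL1, was at 3.17, 1.67 and 2.25 CPM in HFD+C1 and at 1.06, 1.17 and 1.65 CPM in HFD+C2, a log2 difference of -0.87 without overlap. The hour of tissue collection is not given in the sources used here. Ribosomal protein genes had a median of 0.21 over 34, and of -0.10 without HFD+C2 replicate 1 and 0.37 without HFD+C2 replicate 3. Cell cycle genes had a median of -0.14 over 22, with 2 at an unadjusted p under 0.05, both lower (1.79% of all genes tested), and 1 higher (2.11%) and 4 lower (1.42%) without HFD+C1 replicate 2. The 2 were Cdc20, a mitotic activator, at -1.46, and Rrm2, a ribonucleotide reductase subunit, at -0.69. Bub1b, a spindle checkpoint kinase, went the other way at 1.12 with a 95% interval of -0.02 to 2.27, and 1.76 without HFD+C1 replicate 2. Without HFD+C1 replicate 1 the cell cycle median was -0.02, with 0 at that threshold (1.38% higher, 0.781% lower), and Cdc20 and Rrm2 differed by -0.74 and -0.38.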
